A study of Homo sapiens with 6 samples.

Results

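Transcripts of 10 chemokine genes were followed in 5637 cells, a human bladder cancer line, after introduction of MAT1A, which encodes the methionine adenosyltransferase characteristic of liver. The genes were taken by symbol, from a list drawn up with earlier results of these data known: the 6 ELR chemokines CXCL1, CXCL2, CXCL3, CXCL5, CXCL6 and CXCL8, the 2 interferon-induced chemokines CXCL10 and CXCL11, and 2 others, CXCL16 and CCL20. Of these 10, 8 had a row among the 13271 genes of the deposited table, and all 8 passed the filter on low values, with at least 1 on the table's CPM-like scale in every library. CXCL10 and CXCL11 had no row and were not analysed here, so the interferon-induced chemokines gave no values. The 3 MAT1A libraries came from cells given a MAT1A plasmid and the 3 control libraries from cells given an empty vector. Both groups were transfected with Lipofectamine 3000 at 50% confluency and lysed after 48 h, in medium with fetal bovine serum. No source used here gives the share of cells that took up plasmid. Nor do the labels state that the replicates were grown apart, and p-values therefore reflect the scatter among these 6 libraries alone, part of which may be technical.

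Chemokines are small secreted proteins that draw leukocytes along a concentration gradient through receptors coupled to G proteins. The ELR group carries a glutamate-leucine-arginine motif before its first cysteines and attracts neutrophils through CXCR1 and CXCR2, whereas CXCL10 and CXCL11 lack that motif and attract activated T cells through CXCR3. In epithelia the ELR genes and CCL20 are known targets of NF-κB downstream of tumour necrosis factor and interleukin 1, and their messenger RNAs are known to be short-lived.

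The libraries held 17.4 to 21.6 M reads. MAT1A had 1805, 1834 and 1917 in MAT1A libraries 1, 2 and 3, against 1.09, 0.253 and 4.54 in control libraries 1, 2 and 3, on the CPM-like scale of the table, which is used for all values below. The count does not separate plasmid transcripts from those of the cells' own gene. All 10 epithelial markers looked for had a row, and 5 were called higher and 1 lower; KRT5, a basal keratin, stood at 1857, 2033 and 1864 in MAT1A libraries 1, 2 and 3 against 1572, 1570 and 1476 in control libraries 1, 2 and 3. Of 14 leukocyte markers 1 had a row, LYZ, at 0.0466 to 0.916 in MAT1A and 0.505 to 1.66 in control libraries. All 8 skeletal muscle markers had a row and were called lower, with a summed level of 23.7 to 61.3 in MAT1A and 61.8 to 374 in control libraries, the highest in control 1. Of 6 fibroblast markers 3 had a row, with a summed level of 121 to 128 in MAT1A and 143 to 259 in control libraries, and 1 of them was called lower. Of 4 endothelial markers 1 had a row, VWF, at 0.755 to 1.13 in MAT1A and 0.579 to 0.918 in control libraries. The calls of the 8 chemokines of the set were the same without control 1; the part of these markers in the results was not tested otherwise.

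Chemokine transcripts did not move as a block. CXCL3, CXCL2, CXCL8 and CCL20 fell in MAT1A cells and CXCL16 rose, while CXCL1, CXCL5 and CXCL6 did not pass the test. Thus 4 of the 8 were called lower and 1 higher (limma, Benjamini-Hochberg adjusted p under 0.05 over 12866 genes), beside 7.40% of all tested genes called lower, 4.01% called higher and 11.4% called either way. The median log2 change of the 8 was -0.22, beside 0.004 over all tested genes. In 4 the MAT1A libraries all lay below the control libraries and in 2 all above, beside 15.6% of all tested genes below, 14.7% above and 30.3% either way. In bulk RNA, fewer cells making a transcript and less of it per cell cannot be told apart.

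**Figure D1:**
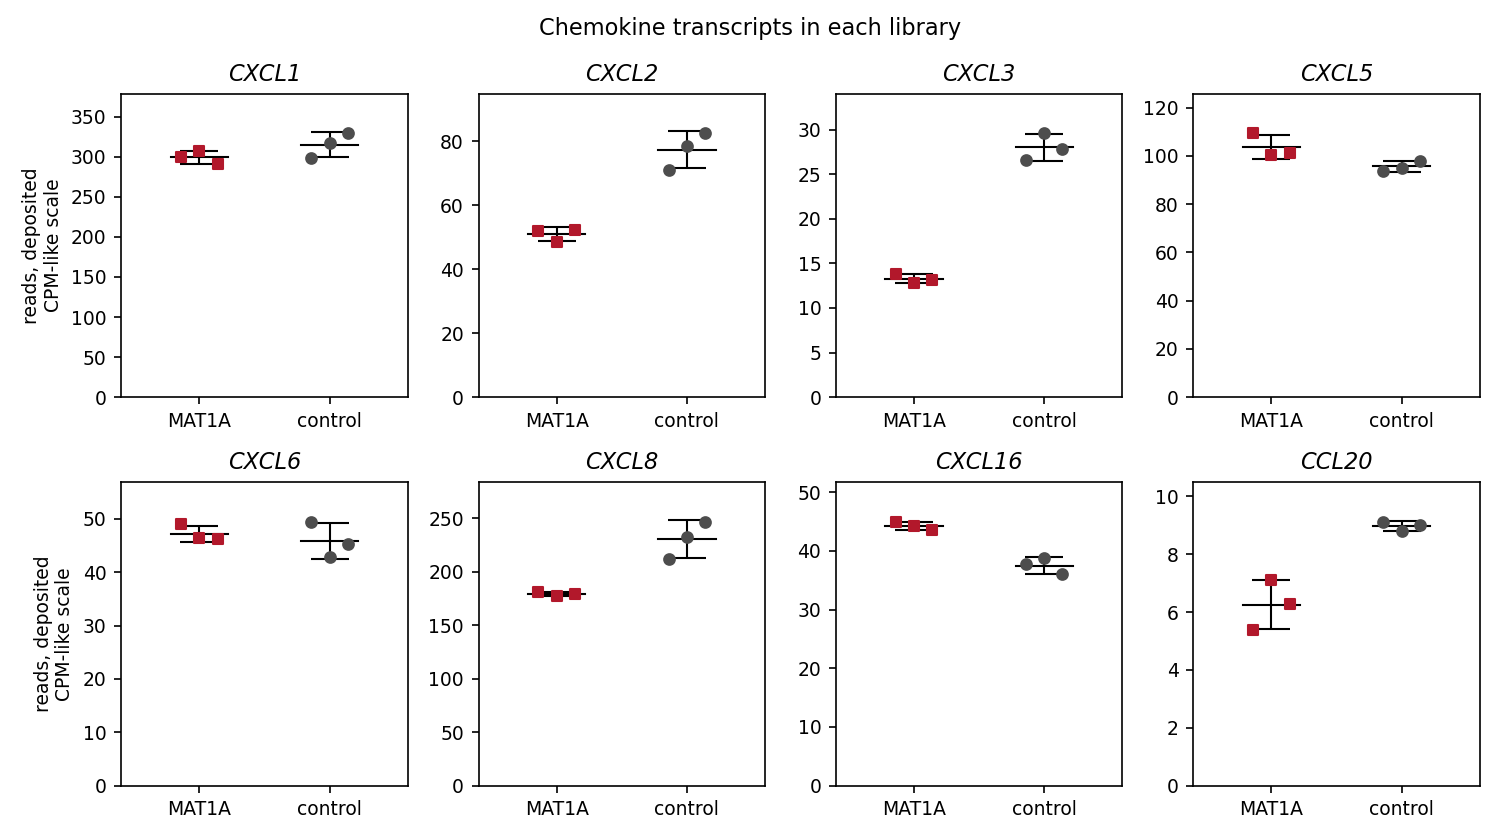
CPM-like values (y axes, from 0) of the 8 chemokine genes, with 1 point per library (squares MAT1A, circles control) and bars for mean ± SD over 3 libraries. CXCL3 lies at a mean of 13.3 in MAT1A and 28.0 in control libraries, while the groups overlap for CXCL1 and CXCL6.

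The 6 ELR genes lie within 359 kb of chromosome 4, between 73740506 and 74099293 of GRCh38. From the RefSeq table for GRCh38.p14, the 250 bases before the RefSeq gene start were compared. They were 84.0% identical between CXCL1 and CXCL3, 78.0% between CXCL2 and CXCL3, 75.6% between CXCL1 and CXCL2 and 85.6% between CXCL5 and CXCL6 in global alignments. Pairs across these families were 54.8% to 56.4% identical, and CXCL8 was 46.0% to 50.8% identical to the other 5. For comparison, the promoter of CCL20, on chromosome 2, was 49.2% to 53.2% identical to the 6. By this measure CXCL8 was less close than CCL20 to CXCL1, CXCL2, CXCL5 and CXCL6. For CXCL3 the order was the other way (50.8% with CXCL8 and 49.2% with CCL20). The motif GGAATTTCC, the core of an NF-κB site, was sought on both strands from 250 bases before to 50 bases after the start. All 6 ELR promoters held it, as did 0.472% of 27305 promoters. The 6 are related copies, so these are not independent occurrences, and the motif was chosen after the promoters had been read. The stretches around the match are shown because genes that carry the same site differed in response. Each is written 5′ to 3′ on the gene's strand, with capitals for the match (and in CXCL8 also for TGANTCA, the AP-1 motif).
CXCL1 (chr4:73869255-73869374, plus strand): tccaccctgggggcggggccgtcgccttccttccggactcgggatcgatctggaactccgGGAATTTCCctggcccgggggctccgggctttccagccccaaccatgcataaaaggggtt
CXCL2 (chr4:74099213-74099332, minus strand): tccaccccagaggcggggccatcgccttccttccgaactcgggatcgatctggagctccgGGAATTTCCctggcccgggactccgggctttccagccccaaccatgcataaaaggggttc
CXCL3 (chr4:74038708-74038827, minus strand): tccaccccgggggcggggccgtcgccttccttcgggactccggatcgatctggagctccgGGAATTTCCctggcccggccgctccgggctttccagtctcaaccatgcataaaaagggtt
CXCL5 (chr4:73998708-73998827, minus strand): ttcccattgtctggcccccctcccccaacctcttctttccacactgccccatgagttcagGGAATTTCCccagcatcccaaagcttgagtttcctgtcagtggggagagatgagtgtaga
CXCL6 (chr4:73836529-73836648, plus strand): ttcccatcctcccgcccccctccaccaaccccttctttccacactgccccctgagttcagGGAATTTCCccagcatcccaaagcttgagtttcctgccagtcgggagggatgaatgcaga
CXCL8 (chr4:73740418-73740537, plus strand): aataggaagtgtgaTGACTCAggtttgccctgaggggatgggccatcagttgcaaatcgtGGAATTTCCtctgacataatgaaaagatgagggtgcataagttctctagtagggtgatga

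The match began at base -78 from the start in CXCL1 and CXCL3, at -77 in CXCL2, at -90 in CXCL5, at -89 in CXCL6 and at -91 in CXCL8. The motif TGANTCA was found only in CXCL8 among the 7 chemokines with a promoter in the table, at base -137, and in 7.76% of all promoters. These matches are letters in a window and say nothing of binding.

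CXCL3 (chromosome 4, 74036589 to 74038807, minus strand; ELR gene positions below are on the same chromosome, from GENCODE 29), whose product is a neutrophil attractant close to CXCL1 and CXCL2, showed the largest fall of the 8. Its values were 13.9, 12.8 and 13.2 in MAT1A libraries 1, 2 and 3, from 249 to 283 reads, against 26.6, 29.6 and 27.8 in control libraries 1, 2 and 3. Every MAT1A library lay below every control library, and the ratio of means was 0.474. The log2 change was -1.02 (SE 0.06, 95% interval -1.16 to -0.89, limma adjusted p = 8.1e-09).

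CXCL2 (74097035 to 74099293, minus strand), a neutrophil attractant also known as MIP-2α, fell less. Its values were 52.0, 48.6 and 52.4 in MAT1A libraries 1, 2 and 3, against 71.2, 78.5 and 82.6 in control libraries 1, 2 and 3. The groups did not overlap, with a ratio of means of 0.659. This gave a log2 change of -0.59 (SE 0.05, 95% interval -0.70 to -0.48, limma adjusted p = 6.0e-07).

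CXCL8 (73740506 to 73743716, plus strand), the gene of interleukin 8, fell as well. It had 181, 178 and 179 in MAT1A libraries 1, 2 and 3, against 212, 232 and 247 in control libraries 1, 2 and 3. The MAT1A libraries lay close together, with a coefficient of variation of 0.972%, below the 1.68% that counting alone gives, while the control libraries varied by 7.64%. This gave a log2 change of -0.36 (SE 0.04, 95% interval -0.45 to -0.27, limma adjusted p = 3.0e-05).

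CXCL1 (73869393 to 73871242, plus strand), the most abundant of the 8 per kb and a ligand of CXCR2, did not pass the test. Its values were 299, 307 and 291 in MAT1A libraries 1, 2 and 3, against 299, 317 and 329 in control libraries 1, 2 and 3, and the groups overlapped. The 95% interval of its log2 change ran from -0.15 to 0.0035 (limma adjusted p = 0.213), so a fall of the size seen in CXCL2 or CXCL3 lay outside it.

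CXCL5 (73995642 to 73998779, minus strand), a neutrophil attractant of epithelial cells, lay slightly higher. It had 109, 100.5 and 101 in MAT1A libraries 1, 2 and 3, against 93.7, 95.1 and 98.1 in control libraries 1, 2 and 3. All MAT1A libraries lay above all control libraries, yet the log2 change of 0.11 (SE 0.04, 95% interval 0.030 to 0.20) did not pass over all genes (limma adjusted p = 0.0753). It passed with the replicate number as a block (adjusted p = 0.0335), with a fitted trend over exon length and GC content taken out of every library (log2 change 0.16, adjusted p = 0.0039) and without MAT1A 2 (adjusted p = 0.0326). Without MAT1A 1, the highest library, the log2 change was 0.075 and the adjusted p 0.306.

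CXCL6 (73836497 to 73849064, plus strand), which attracts neutrophils through both CXCR1 and CXCR2, did not pass the test. Its values were 48.9, 46.5 and 46.2 in MAT1A libraries 1, 2 and 3, against 49.5, 42.8 and 45.4 in control libraries 1, 2 and 3. The groups overlapped, and the 95% interval of the log2 change ran from -0.068 to 0.15 (limma adjusted p = 0.656). Its estimate was 0.043, and -0.0052 without control 2.

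Per kb of annotated exon, CXCL1 had the highest level in both groups, at 231 ± 6.14 in MAT1A and 243 ± 11.9 in control libraries (SD, n = 3 each). CXCL8 came next, at 78.8 ± 0.77 in MAT1A and 101 ± 7.74 in control libraries. By annotated exon length, CXCL5 and CXCL2 exchanged places in the order. CXCL5 stood at 40.8 ± 1.99 in MAT1A and 37.7 ± 0.87 in control libraries. CXCL2 stood below it in MAT1A libraries at 34.0 ± 1.39 and above it in control libraries at 51.6 ± 3.85, and these genes did not overlap within either group. CXCL6 followed at 21.6 ± 0.69 in MAT1A and 21.0 ± 1.54 in control libraries, and CXCL16 at 15.9 ± 0.25 in MAT1A and 13.4 ± 0.50 in control libraries. CXCL3 stood at 5.99 ± 0.24 in MAT1A and 12.6 ± 0.69 in control libraries, and CCL20 at 3.93 ± 0.53 in MAT1A and 5.63 ± 0.11 in control libraries. The only neighbours in either order whose libraries overlapped were CXCL16 and CXCL3 in control libraries. Exon length was the union of all annotated transcripts, which need not be the transcripts made in these cells. For CXCL3 it was 2219 bases, against 1075 in the longest coding transcript. For CXCL2 it was 1500 against 1218 and for CCL20 1594 against 839, while for CXCL5 both were 2538. The exchange of CXCL5 and CXCL2, the place of CXCL3 and the shares of the sum below therefore depend on the length used.

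The 6 ELR genes together gave 412 ± 6.15 per kb in MAT1A libraries and 467 ± 23.6 in control libraries (SD, n = 3 each). In MAT1A libraries CXCL1 made up 56.0% of that sum, CXCL8 19.1%, CXCL5 9.91%, CXCL2 8.25%, CXCL6 5.25% and CXCL3 1.45%. In control libraries the shares were 52.0% for CXCL1, 21.6% for CXCL8, 8.07% for CXCL5, 11.03% for CXCL2, 4.51% for CXCL6 and 2.70% for CXCL3. The share of CXCL1 was thus larger in MAT1A libraries, where the sum was smaller.

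Ratios within a library do not depend on how libraries were scaled. CXCL3 reads were 0.0463, 0.0416 and 0.0453 of CXCL1 reads in MAT1A libraries 1, 2 and 3, against 0.0889, 0.0933 and 0.0845 in control libraries 1, 2 and 3. The mean log2 ratio to CXCL1 was lower in MAT1A libraries by 1.00 for CXCL3, by 0.53 for CXCL2, by 0.46 for CCL20 and by 0.29 for CXCL8. It was higher by 0.19 for CXCL5 and by 0.31 for CXCL16. For these 6 genes the groups did not overlap, and the two-sided exact permutation p was 0.1, the smallest that 3 against 3 libraries can give (Benjamini-Hochberg adjusted p = 0.117 over 7 ratios). For CXCL6 the groups overlapped (exact permutation p = 0.4, adjusted p = 0.4).

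**Figure D2:**
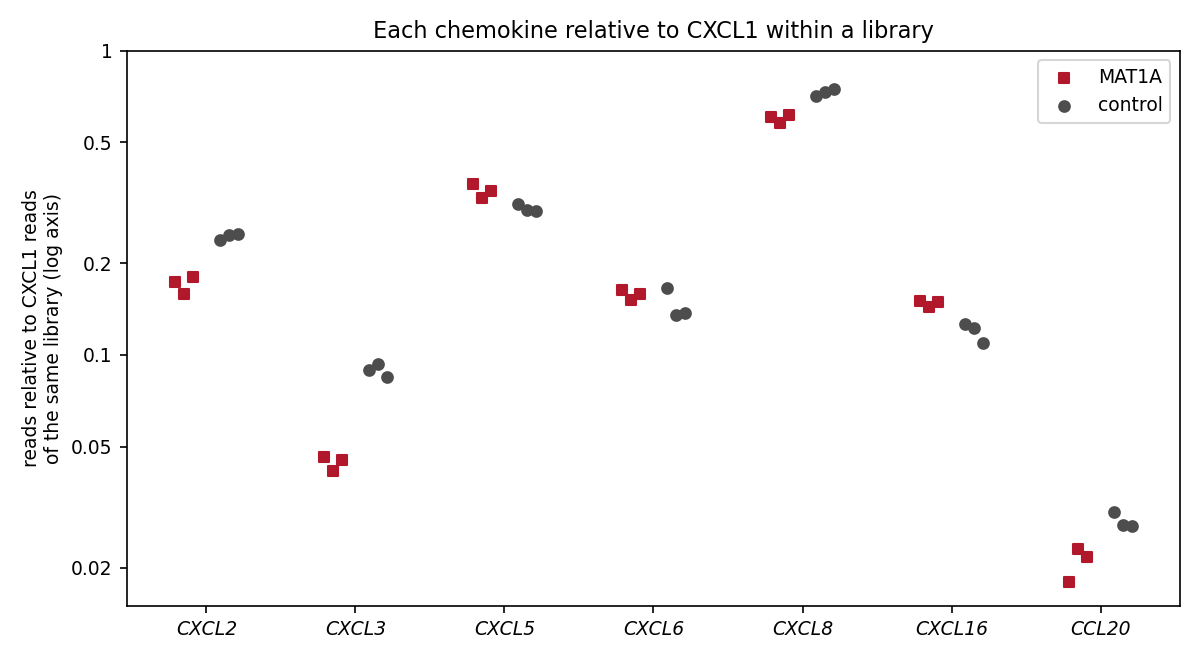
Reads of each chemokine gene relative to CXCL1 reads of the same library (log axis), with 1 point per library (squares MAT1A, circles control). CXCL3 lies at 0.0416 to 0.0463 in MAT1A and 0.0845 to 0.0933 in control libraries, and only CXCL6 overlaps between groups.

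Within the chromosome 4 cluster the called genes were not adjacent as a group. From CXCL8, which fell, the start of CXCL6 lies 96.0 kb away, that of CXCL1 129 kb and that of CXCL5 258 kb, and none of these passed. CXCL3 and CXCL2, both on the minus strand and both lower, start 298 and 359 kb from CXCL8. Of the 6 other genes with a row within 500 kb of the cluster, none passed the test (limma), among them EREG and AREG, which encode ligands of the epidermal growth factor receptor. The log2 change was 0.04 for EREG (adjusted p = 0.605) and 0.07 for AREG (adjusted p = 0.286). EPGN, a further ligand of that receptor, had a log2 change of 0.28 (95% interval 0.054 to 0.52, adjusted p = 0.105) and RASSF6, a Ras association domain protein, one of 0.21 (95% interval 0.049 to 0.37, adjusted p = 0.0848), both with intervals above 0 before adjustment. MTHFD2L and ANKRD17 had log2 changes of -0.09 and -0.02. These neighbours were chosen by position.

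**Figure D3:**
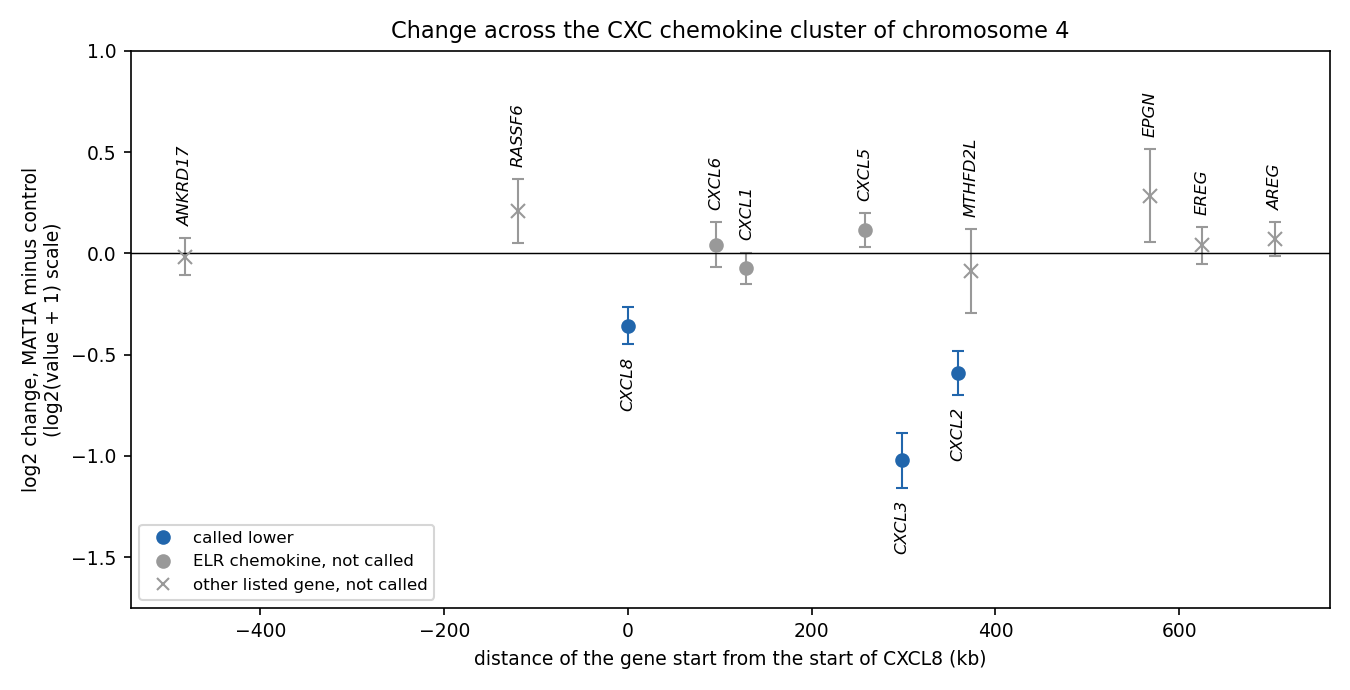
Difference in log2(value + 1) between MAT1A and control libraries, with 95% intervals, against the distance in kb of each gene's start from that of CXCL8. Circles are ELR chemokines and crosses other genes with a row within 500 kb; CXCL8 (-0.36), CXCL3 (-1.02) and CXCL2 (-0.59) are called lower and the rest are not called.

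Reads from stretches that genes share could be exchanged between them. Of the 36-base windows in annotated CXCL2 transcripts, 19.0% also occurred in a transcript of another gene, mainly CXCL3 and CXCL1. The share was 11.2% for CXCL1, 8.14% for CXCL3, 5.27% for CXCL16, 4.05% for CXCL6, 3.52% for CXCL5 and 0.945% for CCL20. For CXCL8, 0 of 2273 windows were shared. Of the 88 shared windows of CXCL5, 61 occurred in GLYR1, and of the 87 of CXCL6, 60 occurred in the pseudogene PPBPP1. The exons of PPBPP1 share 94 bases with those of CXCL6 on the same strand. CXCL5 and CXCL6 shared 27 windows with each other. Of the 147 shared windows of CXCL16, 50 occurred in MED11, and others were spread over many genes. The sources used here do not say how such reads were counted. The levels of genes with shared windows, above all CXCL1, CXCL2 and CXCL3, are uncertain to that extent.

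CCL20, which attracts T cells, B cells and immature dendritic cells through CCR6, fell. It lies on chromosome 2 at 227805739 to 227817564. CCL20 values were 5.39, 7.09 and 6.29 in MAT1A libraries 1, 2 and 3, against 9.13, 8.79 and 9.02 in control libraries 1, 2 and 3. The groups did not overlap, but the level rested on only 100 to 138 reads in MAT1A libraries, where its coefficient of variation was 13.6% against 1.90% in control. Its log2 change was -0.47 (SE 0.09, 95% interval -0.66 to -0.27, limma adjusted p = 0.0037). The NF-κB core sought above was not among the letters of its promoter window. A looser form (GGG, any 5 bases, then CC) was held by 58.0% of all promoters and by 73.8% of those of tested genes. In CCL20 this form matched at overlapping places between bases -81 and -70 on both strands. Further matches lay at -21 to -12 on both strands and at -207 to -198. The stretch is shown for comparison with the ELR promoters, with the matches between -81 and -70 in capitals.
CCL20 (chr2:227813701-227813823, plus strand): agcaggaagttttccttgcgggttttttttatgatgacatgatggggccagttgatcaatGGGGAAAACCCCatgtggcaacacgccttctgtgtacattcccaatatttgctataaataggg

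CXCL16 is made as a membrane-bound protein whose released part attracts CXCR6-bearing T cells, and it was the 1 gene of the 8 that rose. It lies on chromosome 17 at 4733526 to 4739922. It had 45.0, 44.3 and 43.6 in MAT1A libraries 1, 2 and 3, against 37.7, 38.8 and 36.0 in control libraries 1, 2 and 3. All MAT1A libraries lay above all control libraries, with a ratio of means of 1.18. The log2 change was 0.23 (SE 0.05, 95% interval 0.14 to 0.33, limma adjusted p = 0.0032). Its exons share 85 bases with MED11 on the opposite strand, and the kit did not mark strand; MED11 stood at 4.36 ± 0.32 in MAT1A and 3.67 ± 0.33 in control libraries (SD, n = 3 each; limma adjusted p = 0.231). ADAM10 and ADAM17, proteases that release CXCL16 from the membrane and named after their values were seen, had log2 changes of 0.04 (adjusted p = 0.442) and 0.0053 (adjusted p = 0.954).

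The pentamer ATTTA, which makes up AU-rich elements of unstable messenger RNAs, was counted in the longest coding transcript of each gene. It occurred 8.21 times per kb in CXCL2, 6.51 in CXCL3, 5.87 in CXCL8, 4.77 in CCL20, 4.56 in CXCL1, 4.33 in CXCL5 and 3.49 in CXCL6, against 0.900 in CXCL16. The median over 12063 tested coding genes was 1.08 per kb, and the 7 genes other than CXCL16 exceeded at least 95.7% of them.

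By the distance between centred log2 profiles over the 6 libraries, the genes most like CXCL1 were PJA1, LRRC42 and MUS81 (root-mean-square distances of 0.0147, 0.0167 and 0.0172). Those most like CXCL16 were INPP4A, SUOX and ANO10 (0.0178, 0.0206 and 0.0251), out of 10543 genes with a mean of at least 5. The median distance over those genes was 0.0897 from CXCL1 and 0.132 from CXCL16.

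Of 16 chemokine receptor genes looked for, 2 had a row, and neither passed. ACKR3, a scavenging receptor for CXCL11 and CXCL12, stood at 76.0 ± 3.35 in MAT1A and 80.1 ± 1.23 in control libraries (SD, n = 3 each; limma adjusted p = 0.247). CCRL2, an atypical receptor-like protein, stood at 2.05 ± 0.18 in MAT1A and 2.19 ± 0.25 in control libraries (adjusted p = 0.772). Of 18 further chemokine genes 1 had a row. CCL5, which attracts T cells and monocytes, had 0.593, 0.822 and 0.746 in MAT1A libraries 1, 2 and 3 against 2.64, 3.39 and 2.90 in control libraries 1, 2 and 3. The MAT1A libraries lay below all control libraries, but CCL5 passed the filter only through the control libraries, so its difference is given as a description with no test.

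Among 14 tested cytokines and receptors that act upstream of these chemokines, 3 were called lower and 0 higher (limma), beside 7.40% and 4.01% of all tested genes, with a median log2 change of 0.02 beside 0.004 over all tested genes. One of the 3, TNF, the gene of tumour necrosis factor, had 1.08, 1.03 and 0.886 in MAT1A libraries 1, 2 and 3 against 6.14, 6.22 and 7.24 in control libraries 1, 2 and 3. It reached the minimum of 1 in 3 libraries only with the control libraries, so these values are a description. Without TNF, 2 of the other 13 were called lower, beside 7.14% of the genes that reached 1 in every library. IL1A, the gene of interleukin 1α, fell to 605 ± 10.2 in MAT1A libraries, against 735 ± 21.5 in control libraries (log2 change -0.28, adjusted p = 8.8e-06). TRAF6, an adaptor of interleukin 1 receptor signalling, had a log2 change of -0.23 (adjusted p = 0.0306) that was lost without MAT1A 2, control 2 or control 3 (adjusted p 0.107 to 0.116) and with DESeq2 (0.0762). No other member passed. With TNF included, the count was 2 or 3 when any single library was left out.

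Of 15 NF-κB subunits, kinases and inhibitors, 9 fell and 0 rose (limma), beside 7.40% of all tested genes called lower and 4.01% called higher, with a median log2 change of -0.25 beside 0.004 over all tested genes. The subunits RELA and REL and the kinases CHUK, IKBKB, IKBKG and MAP3K14 did not pass. TNFAIP3, a feedback inhibitor of NF-κB, fell by 0.86 on the log2 scale (adjusted p = 7.7e-12), RELB, a subunit, by 0.59 (adjusted p = 4.9e-07) and NFKB2, also a subunit, by 0.39 (adjusted p = 4.7e-06). The count was between 8 and 11 when any single library was left out. These 9 genes and CXCL2, CXCL3, CXCL8 and CCL20 were lower in the same libraries; what links them was not tested.

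Among 13 tested interferon signalling factors 5 were called lower and 0 higher (limma), beside 7.40% and 4.01% of all tested genes, with a median log2 change of -0.12 beside 0.004. One of the 5, IFNL1, passed the filter only through the control libraries. Of the other 12, 4 were called lower, beside 7.14% of the genes that reached 1 in every library. IRF1, a transcription factor induced by interferon, fell to 49.7 ± 2.71 in MAT1A libraries, against 61.0 ± 1.39 in control libraries (SD, n = 3 each; log2 change -0.29, adjusted p = 0.00046). IRF7, a factor for type I interferon genes, had a log2 change of -0.37 (adjusted p = 0.0035). IFNL1, a type III interferon gene, was low throughout, with 0.431, 0.411 and 0.186 in MAT1A libraries 1, 2 and 3 against 1.26, 1.82 and 1.21 in control libraries 1, 2 and 3, and is given as a description with no test. Without control 1, control 2 or control 3, 12 factors were tested and 3 fell, and 3 of 13 fell with DESeq2.

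Of 7 factors that act on AU-rich or stem-loop sites of messenger RNA, 3 fell and 0 rose (limma), beside 7.40% and 4.01% of all tested genes, all of the ZFP36 family, which promotes decay of such transcripts. The log2 change was -0.18 for ZFP36L2 (adjusted p = 0.0108), -0.22 for ZFP36 (adjusted p = 0.0206) and -0.12 for ZFP36L1 (adjusted p = 0.0226). These falls depended on single libraries: 0 of the 3 passed without control 3 (adjusted p 0.0699 to 0.133) and 1 without control 1. ZFP36 was also lost without MAT1A 1 or control 2, and with DESeq2 (adjusted p 0.0535 to 0.0990). Of 8 proteases that cut chemokines, CTSL (cathepsin L) rose (log2 change 0.21, adjusted p = 0.0022) and MMP1 (interstitial collagenase) fell (-0.16, adjusted p = 0.0125), so that 1 was called in each direction, beside 4.01% of all tested genes called higher and 7.40% called lower. MMP1 was lost without MAT1A 1 (adjusted p = 0.0678) or control 3 (adjusted p = 0.105).

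**Figure D4:**
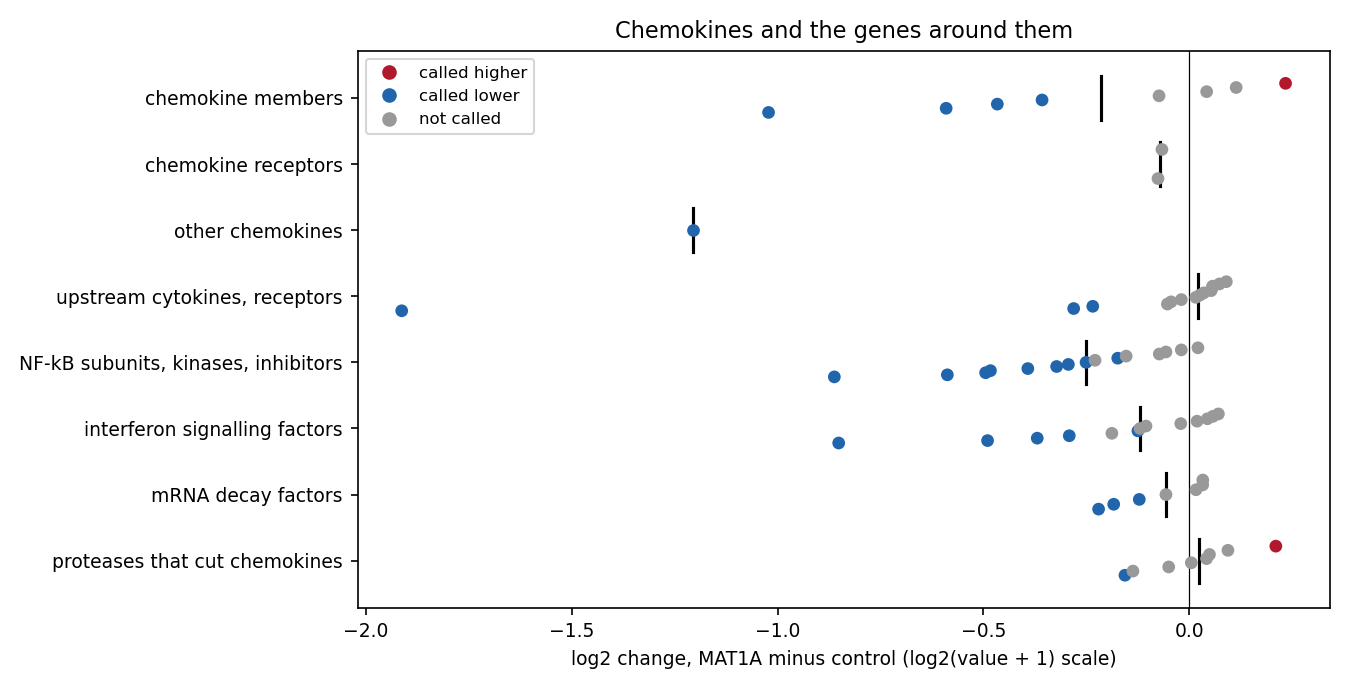
Difference in log2(value + 1) between MAT1A and control libraries (x axis) of each tested gene of the chemokine set and of 7 lists around it, with 1 point per gene and a black bar at each list's median. The chemokines spread from -1.02 (CXCL3) to 0.23 (CXCL16), and TNF (-1.91) is the lowest gene shown. TNF, CCL5 and IFNL1 passed the filter only with the control libraries. Their points, which enter the medians and are coloured as called lower, are descriptions.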

How the data were processed

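The authors deposited a table of 13271 genes in 6 columns whose values are a signal, reads per gene relative to a scaled library size (CPM-like), and not counts. STAR 2.6.0c, featureCounts, edgeR and the hg38 build appear in the submitters' processing notes; annotation and settings were not given in the sources used here. Divided by a step found for each column, 100% of values came out whole within 0.001 reads, which gave the reads per library; in 3 columns the smallest value is more than 1 step. The main test was limma 3.58.1 (R 4.3.3) with an intensity trend on log2(value + 1), over the 12866 genes that reached 1 in 3 or more libraries, with Benjamini-Hochberg adjustment; fold changes on this scale understate the change of low genes. The script was tested on simulated data. Positions and exon lengths are from GENCODE release 29 (GRCh38, the hg38 build), in which 13211 symbols matched, and promoters are from RefSeq (GRCh38.p14). Libraries of the same group differed by more than sampling noise (chi-square per degree of freedom 1.87 to 4.46). Libraries with the same replicate number deviated together after group means were removed (correlations 0.246, 0.178 and 0.191). Pairing by number rests on these correlations, since no label states it. The main test had group only and did not pair libraries, and the replicate block was an alternative setting. The design planned edgeR's quasi-likelihood test if the table held counts; since it does not, edgeR 4.0.16, DESeq2 1.42.0 and voom on the recovered reads are alternatives. The members and lists were chosen with earlier results of these data known. The text names all members with a row, up to 3 called genes per list and direction with the smallest p, lists of at most 5 tested genes in full, and the 3 genes most like the leading ELR and non-ELR member.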

Additional observations from a re-analysis of the deposited data

How the results depend on the processing

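Under 19 other settings (other scalings, tests, filters, pseudocount and threshold, the replicate block, a length and GC correction chosen after the data were seen, and leaving out each library) CXCL2, CXCL3, CXCL8 and CCL20 were called lower and CXCL16 higher each time. A gene called higher was added, CXCL5, with the replicate block (2 called higher), with the length and GC trend removed (2) and with both (2); the count was 1 to 2 when a library was left out. The block changed no other call of a chemokine. CXCL6 changed sign when a library was left out, with log2 changes of -0.0052 to 0.0971. Over all genes 1468 were called, against 957 with DESeq2, 663 at an adjusted p under 0.01, 2310 with the replicate block, 2523 with the length and GC trend removed and the block, and 749 to 1656 when a library was left out, the lowest without control 3 and 782 without control 1. The cause was not tested. CCL5 and IFNL1 gave no value without control 1, 2 or 3 or with a minimum of 5, since too few libraries then passed the filter. CCRL2 gave none with that minimum. Among the 8 chemokines of the set depth limits CCL20 most, with a counting error of 8.97% per MAT1A library; this covers counting alone, because PCR copies cannot be told from separate molecules here.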

Other observations

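Besides the ELR chemokines, 40 tested genes had GGAATTTCC on either strand of the promoter window. Of these 13 were called lower and 0 higher (limma, Benjamini-Hochberg adjusted p under 0.05), or 32.5%, beside 7.40% of all tested genes called lower; the median log2 change was -0.09. Of the 37 that reached the minimum of 1 in every library, 11 were called lower (29.7%), beside 7.14% of all tested genes that reached it. Both shares over all genes include genes without a promoter in the RefSeq table, which 10043 tested genes had. The count of lower genes was 10 to 17 under the other settings. Chosen after their values were seen, the 3 with the smallest p were ICAM1, TNFRSF9 and NFKB1. ICAM1, a leukocyte adhesion molecule, had 22.4 ± 2.02 in MAT1A and 48.6 ± 2.41 in control libraries (SD, n = 3 each). TNFRSF9, a receptor of the tumour necrosis factor family, had 1.36 ± 0.46 in MAT1A and 6.18 ± 0.52 in control libraries and passed the filter only with the control libraries. NFKB1, which encodes an NF-κB subunit, had 99.5 ± 0.21 in MAT1A and 124.7 ± 4.47 in control libraries. What links the motif to the change was not tested.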
